A study of Mus musculus with 4 samples.

Results

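The circles described here are the circular RNAs (circRNAs) made from Col4a1, Col4a2 and Col4a5, which encode chains of type IV collagen. The 3 hosts were chosen with earlier results of these data known, and within them every listed circle with the deposited Ensembl gene identifier was taken, whatever its reads. Circles of other type IV chains are given with the basement membrane genes near the end. This gave 27 distinct circles of 13499 in all, 17 from Col4a1, 7 from Col4a2 and 3 from Col4a5. They come from total RNA of C57BL/6 mouse lung at 4 stages, with 1 library each. The pseudoglandular library is of embryonic day 14.5, the canalicular library of day 16.5, the terminal sac library of day 18.5 and the alveolar library of newborns at day 7.5. The labels give no genotype beside the strain, no treatment and no number of animals behind a library. Each comparison is therefore of libraries, not of stages, without a replicate check and without p-values.

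A circRNA forms when the 3′ end of an exon is spliced back to the 5′ end of the same exon or of one upstream. Type IV collagen is the network-forming collagen of basement membranes, the sheets of matrix beneath epithelium and around capillaries. The chains of Col4a1 and Col4a2 assemble together into the form found in nearly all basement membranes, and Col4a5 supplies a chain of other trimers. The 2 genes Col4a1 and Col4a2 lie head to head and share a promoter region. Each chain is a long run of Gly-X-Y triplets, so its coding sequence repeats the glycine codon GGN over and over. In the developing lung the basement membrane separates airway epithelium from mesenchyme, and in the mature alveolus it lies between the thin epithelium and the capillary.

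The sequences below show how the ends of the main circles are built. Each is the 20 bases before and the 20 bases after a join, 5′ to 3′ on the strand of the gene, taken from GENCODE M21 transcripts on build GRCm38 (mm10). Capitals mark the direct repeat, the run of bases that stands at both ends of the circle, so that the point of joining could be placed anywhere within it. The circle of Col4a1 exons 24 to 27 (chromosome 8, 11223576 to 11231441, minus strand) is shown with the linear transcript at its 5′ and 3′ ends, because its repeat of 14 bases was the longest among the collagen IV circles.
Exons 24 to 27, back-splice junction: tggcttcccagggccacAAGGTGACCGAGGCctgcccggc
Exon 24, linear transcript at the circle's 5′ end: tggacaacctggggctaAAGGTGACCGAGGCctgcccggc
Exons 27 and 28, linear transcript at the circle's 3′ end: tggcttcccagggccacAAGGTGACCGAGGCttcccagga

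The other junctions shown are those of the circle with most reads, of the 3 other well-read circles with a repeat of 8 or 9 bases, and of the longest well-read circle, from Col4a5. In each the letters GG stand within the capitals.
Col4a1 exons 35 to 39: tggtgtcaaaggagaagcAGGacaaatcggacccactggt
Col4a1 exons 23 to 28: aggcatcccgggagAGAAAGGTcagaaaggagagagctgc
Col4a1 exons 21 to 23: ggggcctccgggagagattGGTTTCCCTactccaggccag
Col4a1 exons 3 to 6: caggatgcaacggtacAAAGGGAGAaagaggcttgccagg
Col4a5 exons 9 to 28: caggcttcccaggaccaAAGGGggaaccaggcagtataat

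The files give 4 numbers for each circle in each library. Junction reads cross the back-splice, and non-junction reads cross the same ends in linear form. The junction ratio counts each junction read 2 times, for its 2 ends, and divides by that number plus the non-junction reads. The alignment patterns are the distinct ways in which the junction reads aligned, of 3 kinds: SM patterns, with the unaligned part first, MS patterns, with it last, and SMS patterns, with it on both sides. The depth, in listed junction reads, was 25983 for the pseudoglandular, 31218 for the canalicular, 36156 for the terminal sac and 28332 for the alveolar library. Circles with 2 reads made up 37.4% to 41.5% of a library, and 2 is the lowest number listed, so whether a low circle is listed depends on depth. Every interval given is at 95% and reflects the counting of reads and nothing else. PCR copies are not independent molecules, so these intervals can be too narrow.

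Collagen IV circles held 1.22% of the listed junction reads of the pseudoglandular library (318 reads), 1.97% of the canalicular (615 reads), 2.69% of the terminal sac (974 reads) and 3.21% of the alveolar library (910 reads). Most were from Col4a1, which had 2750 reads over the 4 libraries against 34 from Col4a2 and 33 from Col4a5. Among all hosts, ordered by junction reads, Col4a1 ranked 3 of 2451, 1 of 2514, 1 of 2683 and 2 of 2328 in order of stage. Of the 27 circles, 1 was listed in all 4 libraries, 4 in 3 libraries, 1 in 2 and 21 in 1 library. A count of 10 reads in some library was reached by 9 circles, 7 from Col4a1 and 2 from Col4a5, and 10 circles had 2 reads in all.

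The exons of Col4a1 (chromosome 8, 11198423 to 11312826, minus strand, 52 exons) did not give circles evenly. Exons 34 to 39 held 2 circles with 2036 reads, exons 21 to 28 held 6 circles with 578 reads and exons 3 to 6 held 3 circles with 122 reads. The map of Col4a1 circles on the exons shows these stretches. All 16 circles that could be placed lie in coding sequence. Some shared an end to the base: 2 had their 3′ end at position 11223576, 2 had theirs at 11245737, and 2 had their 5′ end at 11231468.

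**Figure D1:**
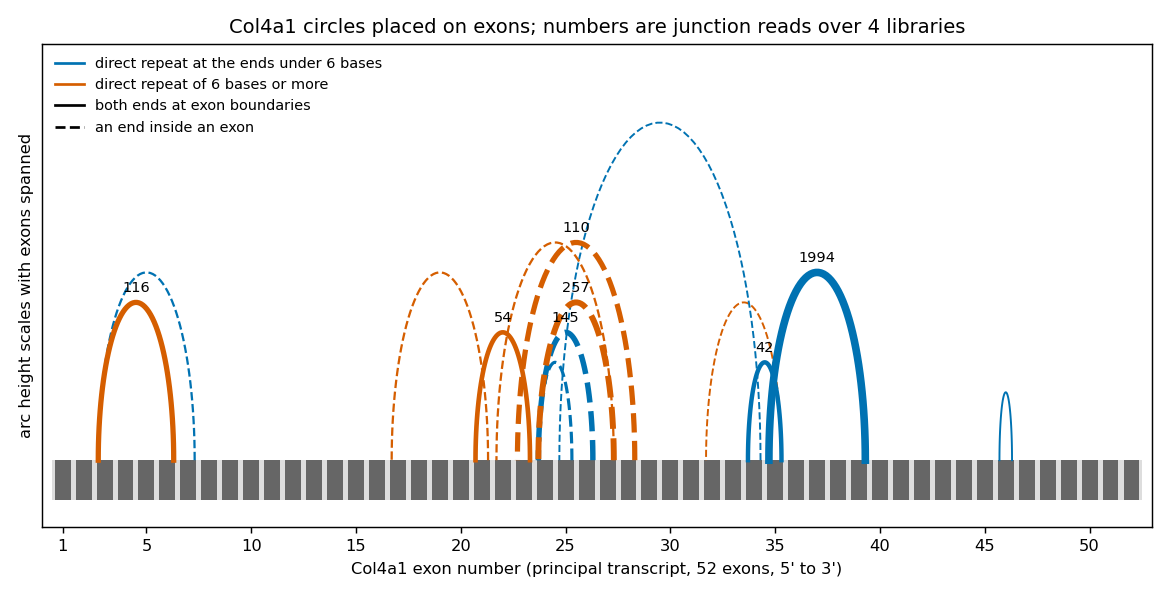
Col4a1 circles that could be placed on exons are drawn as arcs over the 52 exons in transcript order; thick arcs and numbers give junction reads over the 4 libraries for circles with 10 or more reads in a library, colour gives the direct repeat and dashes an end inside an exon. The circle of exons 35 to 39, with 1994 reads, stands to the right of a cluster of circles over exons 21 to 28.

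The circle of Col4a1 exons 35 to 39 (11217265 to 11218967, 537 spliced bases) was read most. Its junction reads numbered 277 at the pseudoglandular stage, 412 at the canalicular, 583 at the terminal sac and 722 at the alveolar stage. Its non-junction reads were 6871, 11135, 16111 and 22035 in the same order. Both kinds of read were lowest in the pseudoglandular and highest in the alveolar library. As a share of all listed junction reads it was 1.07% (0.945 to 1.20), 1.32% (1.20 to 1.45), 1.61% (1.49 to 1.75) and 2.55% (2.37 to 2.74). It ranked 2, 2, 1 and 2 among all circles of the 4 libraries.

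Step by step, the share of this circle was 1.24-fold (1.06 to 1.45) higher in the canalicular than in the pseudoglandular library, 1.22-fold (1.08 to 1.39) higher in the terminal sac than in the canalicular, and 1.58-fold (1.42 to 1.77) higher in the alveolar than in the terminal sac library. None of these steps reached the 2-fold at which a circle was called higher or lower, although every interval excluded 1. From the pseudoglandular to the alveolar library it was 2.39-fold (2.08 to 2.76) higher, which passed the threshold. Counted by alignment patterns in place of reads, a setting chosen after seeing the data, it had 15, 27, 34 and 47 patterns, and the alveolar against pseudoglandular fold was 3.13 (1.72 to 6.02). By patterns the first 2 steps had intervals that included 1.

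The remaining Col4a1 circles did not follow the same course. Their reads summed to 21, 196, 365 and 174 in order of stage, which is 0.0808%, 0.628%, 1.01% and 0.614% of all listed junction reads. They were highest in the terminal sac library, and exons 35 to 39 took 93.0%, 67.8%, 61.5% and 80.6% of the Col4a1 reads. Col4a1 circles with an end not at an exon boundary held 0.0577%, 0.391%, 0.857% and 0.335%, with the same high point. The rest, with both ends at exon boundaries, held 0.0231%, 0.237%, 0.152% and 0.279%. These were highest in the alveolar library and lower in the terminal sac than in the canalicular library.

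**Figure D2:**
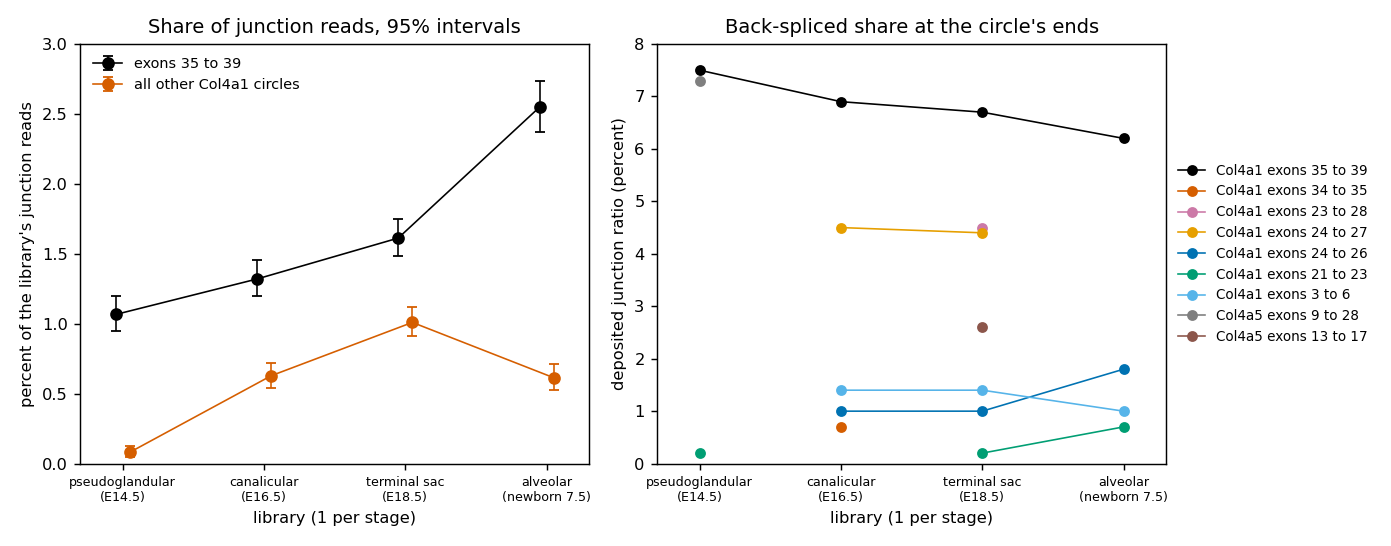
Left, percent of each library's listed junction reads held by the Col4a1 circle of exons 35 to 39 and by all other Col4a1 circles, with exact 95% intervals; right, deposited junction ratio in percent of the 9 circles with 10 or more reads in a library, a point for each library that lists the circle. The first series goes from 1.07% to 2.55% and the other peaks at 1.01% in the terminal sac library, while the ratio of exons 35 to 39 goes from 7.5% to 6.2%.

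Over exons 21 to 28, 4 circles reached 10 reads, and they differed from library to library. Exons 24 to 27 (498 spliced bases), a circle that begins inside exon 24, had 101 reads in the canalicular and 156 in the terminal sac library and was not listed in the other 2. Its non-junction reads were 4309 and 6778, and its junction ratio 0.045 and 0.044. A circle that is not listed was set to a floor of 3 reads, and its fold is then a lower bound in that respect only. Not listed need not mean a count of 0, since 2 is the lowest number listed. Counting error comes on top, so the interval reaches below the fold. Such a bound holds for these exact ends, and only if the level in the library was no higher than 3 reads. The sources used here do not give the filter behind the lists. So read, the circle was at least 28.0-fold (9.32 to 138) higher in the canalicular than in the pseudoglandular library. It was at least 40.7-fold (13.7 to 200) lower in the alveolar than in the terminal sac library. Between the 2 libraries that list it the fold was 1.33 (1.03 to 1.73), below the threshold. Its reads lay over 16 canalicular and 13 terminal sac alignment patterns.

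A longer circle, of exons 23 to 28 (11223050 to 11232030, 663 spliced bases), was listed in the terminal sac library alone, with 110 junction and 4700 non-junction reads and a ratio of 0.045. It was at least 31.7-fold (10.6 to 156) higher there than in the canalicular and at least 28.7-fold (9.58 to 141) lower in the alveolar library. Its reads lay over 6 alignment patterns, or 18.3 reads per pattern, and these folds were not computed by patterns. Its 3′ end lies inside exon 28. The 156 and 110 terminal sac reads of these 2 circles, both with an end inside an exon and a long repeat, make up most of the 365 just given.

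Exons 24 to 26 (11226466 to 11231468, 291 spliced bases) had 21 canalicular, 37 terminal sac and 87 alveolar reads, beside 4096, 7129 and 9291 non-junction reads, and were not listed in the pseudoglandular library. The terminal sac against canalicular fold was 1.52 (0.868 to 2.74), not distinguishable from no change at this depth. The alveolar against terminal sac fold was 3.0 (2.02 to 4.54), and against the pseudoglandular library it was at least 26.6-fold (8.80 to 131) higher. In the canalicular library it was at least 5.83-fold (1.74 to 30.5) higher than in the pseudoglandular. By alignment patterns the alveolar library stood less far above the terminal sac library. These numbered 9, 18 and 22 in the canalicular, terminal sac and alveolar libraries, or 2.33, 2.06 and 3.95 reads per pattern.

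Exons 21 to 23 (11231947 to 11235259, 345 spliced bases) gave a circle with both ends at exon boundaries. It had 6 pseudoglandular, 10 terminal sac and 38 alveolar reads and was not listed in the canalicular library. Non-junction reads in the libraries that list it were 5054, 9480 and 10984. By reads the alveolar library stood above the others, 4.85-fold (2.37 to 10.9) against the terminal sac and 5.81-fold (2.44 to 16.8) against the pseudoglandular library. By alignment patterns it did not: these numbered 5, 6 and 6 in the pseudoglandular, terminal sac and alveolar libraries, or 1.2, 1.67 and 6.33 reads per pattern. The terminal sac against canalicular fold was at least 2.88, with an interval that included 1.

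Near the 5′ end of the gene, the circle of exons 3 to 6 (11245737 to 11247095, 243 spliced bases) had 32 canalicular, 43 terminal sac and 41 alveolar reads and was not listed in the pseudoglandular library. Its non-junction reads were 4520, 6180 and 7957. It was at least 8.88-fold higher in the canalicular and at least 12.5-fold higher in the alveolar than in the pseudoglandular library. Its reads lay over 8 canalicular, 6 terminal sac and 5 alveolar alignment patterns. Among the 3 libraries that list it the folds between neighbours were 1.16 (0.717 to 1.89) and 1.22 (0.774 to 1.91), within counting error. The pseudoglandular library did list 4 reads of a circle of exons 3 to 6 with other ends, 11245763 to 11247067.

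A short circle of exons 34 to 35 (11218869 to 11219232, 252 spliced bases) overlaps the circle of exons 35 to 39 by exon 35. It had 42 reads in the canalicular library, beside 12505 non-junction reads, a ratio of 0.007, and was listed in no other. That is at least 11.7-fold (3.72 to 58.8) higher than in the pseudoglandular library and at least 16.2-fold (5.18 to 81.8) higher than in the terminal sac library. The 42 reads lay over 6 alignment patterns.

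**Figure D3:**
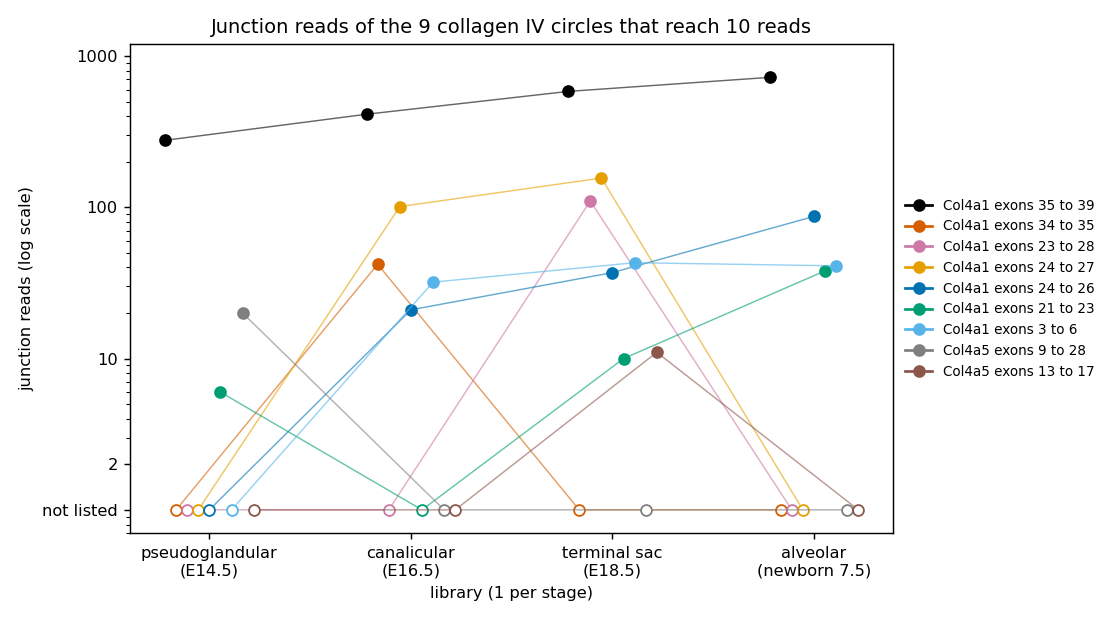
Junction reads (log scale) in each of the 4 libraries for the 9 collagen IV circles with 10 or more reads in a library; open circles on the bottom line mark libraries that do not list the circle. The circle of Col4a1 exons 35 to 39 is read in all 4 libraries, from 277 to 722 reads, while the other 8 are missing from at least 1 library each.

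The other 10 circles of Col4a1 had 2 to 9 reads each and 32 in all. The one with most was of exons 24 to 25 (11227039 to 11231468), with 9 reads in the pseudoglandular library, and its 5′ end is the same as that of the circle of exons 24 to 26. The rest include a single-exon circle of exon 46 and circles of exons 32 to 35, 25 to 34, 22 to 27, 17 to 21 and 3 to 7, and a further circle of exons 3 to 6 with 2 reads (11245737 to 11247087). Their junction ratios were 0.005 at most. Another circle of 2 reads (11231980 to 11242220) ran from exon 23 into intron 11 and could not be placed on a transcript. Over all its circles, Col4a1 had 2611 to 6871 non-junction reads at a circle's ends in the pseudoglandular library, 4096 to 12505 in the canalicular, 3880 to 16111 in the terminal sac and 7308 to 22035 in the alveolar library.

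Col4a2 (chromosome 8, 11312805 to 11449287, plus strand, 48 exons), whose chain is the partner of that of Col4a1, gave 7 circles, none with 10 reads in a library. No read was listed in the pseudoglandular library. The exact interval of that share reaches up to 0.0142% of its listed junction reads, and it leaves out reads of circles too low to be listed. The canalicular library had 7 reads, the terminal sac 13 and the alveolar 14. The most read was the circle of exons 34 to 45 (11437982 to 11443947), with 2, 7 and 7 reads in these 3 libraries beside 2621, 4788 and 8188 non-junction reads and ratios of 0.002, 0.003 and 0.002. Its SM, MS and SMS patterns numbered 2, 1 and 1, then 5, 3 and 1, then 4, 5 and 1, at least as many as its reads. Summed over circles, the alveolar library was at least 4.28-fold (1.19 to 23.2) higher than the pseudoglandular. The other Col4a2 steps did not pass: terminal sac against canalicular was 1.60-fold (0.595 to 4.75) and alveolar against terminal sac 1.37-fold (0.599 to 3.18).

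The other circles of Col4a2 were each listed in 1 library. A single-exon circle of exon 4 had 5 reads in the canalicular library. Circles of exons 28 to 33, 28 to 38 and 34 to 38 had 2 reads each in the terminal sac library, and a circle of exons 19 to 20 had 2 in the alveolar. The only circle of the intron type among the 27 lies in intron 3 of Col4a2 (11315057 to 11315509). It had 5 reads in the alveolar library beside 95 non-junction reads, and its ratio of 0.095 was the highest of any collagen IV circle.

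Col4a5 (chromosome X, 141475385 to 141689234, plus strand, 53 exons) gave reads in 2 libraries, 20 in the pseudoglandular and 13 in the terminal sac, from different circles. Its circle of exons 9 to 28 (141578672 to 141616644, 1779 spliced bases) had 20 pseudoglandular reads beside 506 non-junction reads, a ratio of 0.073. It was at least 8.01-fold (2.38 to 42.1) lower in the canalicular and at least 7.27-fold (2.16 to 38.2) lower in the alveolar library. Within it lies the circle of exons 13 to 17 (141583393 to 141588976, 303 spliced bases), which had 11 reads in the terminal sac library beside 815 non-junction reads, a ratio of 0.026. Neither its fold of at least 3.17 against the canalicular library nor that of at least 2.87 lower in the alveolar library had an interval that excluded 1. A circle of exons 44 to 47 (141666842 to 141673403) added 2 reads in the terminal sac library. For the canalicular and alveolar libraries, with no Col4a5 read listed, the exact intervals of the share reach up to 0.0118% and 0.0130%. They too leave out reads of circles too low to be listed.

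Few collagen IV circles could be compared with the calls over the whole table. Circles with 10 or more reads in a pair of libraries were tested. Those changed at least 2-fold with an interval excluding 1 made up 18.0% of all circles tested between the canalicular and pseudoglandular libraries (8.16% higher, 9.83% lower), and 5 of 6 collagen IV circles were called, 4 higher and 1 lower. All 5 calls set a listed count against a circle not listed, as did 37.2% of the calls over the whole table. Between the terminal sac and canalicular libraries 20.1% of circles were called (8.94% higher, 11.2% lower), and of 8 collagen IV circles 1 was higher, 1 lower and 6 neither, a share near that of all circles. Both of those calls again rest on a circle not listed in 1 library, against 27.2% of all calls.

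Between the alveolar and terminal sac libraries 21.5% of circles were called (10.5% higher, 11.0% lower), and of 8 collagen IV circles 2 were higher (exons 24 to 26 and 21 to 23), 2 lower (exons 24 to 27 and 23 to 28) and 4 neither. Between the alveolar and pseudoglandular libraries 29.6% were called (12.2% higher, 17.4% lower), and of 5 collagen IV circles 4 were higher and 1, that of Col4a5, lower. In each of these 2 comparisons, 2 of the calls are between libraries that both list the circle, and the other 2 and 3 are not. Of all calls in these comparisons 29.0% and 33.7% rest on a circle not listed. A circle that reached 10 reads only through the library that lists it enters with a difference already, so these counts support nothing about the collagen IV circles as a group. The median log2 ratio of the collagen IV circles tested was 2.85, 0.51, 0.32 and 2.54 in the 4 comparisons, against 0.07, -0.02, -0.23 and -0.12 over all circles. These medians hold circles set to 3 reads, and the 4 comparisons share libraries.

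Summed over its circles, Col4a1 was 1.70-fold (1.48 to 1.96) higher in the canalicular than in the pseudoglandular library, 1.35-fold (1.21 to 1.49) higher in the terminal sac than in the canalicular and 1.21-fold (1.10 to 1.32) higher in the alveolar than in the terminal sac library. From the pseudoglandular to the alveolar library the sum was 2.76-fold (2.42 to 3.15) higher and was called, as were 29.4% of all host sums (12.9% higher, 16.6% lower). Without the circle of exons 35 to 39 the sum was 7.77-fold higher in the first step, 0.608 of the terminal sac value in the last step, and 7.60-fold higher in the alveolar than in the pseudoglandular library. Without circles that have a repeat of 6 or more bases or 3 or more reads per pattern the last value was 6.14, from 90 against 15 reads. Of those 90 alveolar reads, 87 are of exons 24 to 26. That circle stays under the limit with 2.96 reads per pattern over its libraries but has 3.95 in the alveolar library. This value therefore rests on 1 circle near the limit. By alignment patterns in place of reads, the sum over all Col4a1 circles gave 1.66-fold (1.09 to 2.58), 1.22-fold (0.882 to 1.70) and 1.24-fold (0.914 to 1.67) in the 3 steps. The last 2 of these intervals include 1. The alveolar against pseudoglandular fold by patterns was 2.51 (1.68 to 3.82).

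For the Col4a5 sum, the fold was at least 8.01 lower in the canalicular than in the pseudoglandular library, where 20.2% of host sums were called (8.91% higher, 11.3% lower). It was at least 3.74 (1.03 to 20.5) higher in the terminal sac than in the canalicular, where 24.6% were called (12.4% higher, 12.2% lower). That call rests on 13 reads and was lost under 2 other settings. Alveolar against terminal sac was at least 3.40-fold lower and not called, beside 24.5% of all host sums called (12.0% higher, 12.5% lower). Alveolar against pseudoglandular was at least 7.27-fold lower.

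Linear reads at the ends of the circle of exons 35 to 39 were, like its junction reads, higher in each later library. Relative to the pseudoglandular library they were 1.49, 2.80 and 3.82 times as high in the canalicular, terminal sac and alveolar libraries when each library was scaled by the non-junction reads of circles listed in all 4. Scaled by total listed non-junction reads, a setting added after seeing the data, they were 1.52, 1.81 and 3.31 times as high, so the terminal sac value moves by over 1.5 times with the scaling. Of the 897 circles listed in all 4 libraries, 5, 4, 0 and 0 had more non-junction reads. The junction ratio of the circle was lower in each later library, 0.075, 0.069, 0.067 and 0.062. The odds of a junction read against a non-junction read were 0.917 (0.785 to 1.07), 0.978 (0.860 to 1.11) and 0.905 (0.810 to 1.01) of those one library earlier, so no single step lay beyond counting error. From the pseudoglandular to the alveolar library the odds ratio was 0.812 (0.705 to 0.935), beyond counting error but under 2-fold, the size at which 22.3% of circles were called.

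The median junction share of those 897 circles, in percent, was 4.30, 4.83, 6.75 and 5.03, against 7.46, 6.89, 6.75 and 6.15 for the circle of exons 35 to 39. It stood above the median in the pseudoglandular library and at the median in the terminal sac library. A change in the number of cells that express Col4a1 and a change in Col4a1 RNA per cell cannot be told apart in libraries from whole lung, for linear and circular reads alike.

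The ratios of the other circles were mostly lower. Exons 24 to 26 stood at 0.010 in the canalicular and terminal sac and 0.018 in the alveolar library, an odds ratio of 1.79 (1.22 to 2.63) for the last step. This odds ratio counts reads, and the alignment patterns numbered 18 and 22 in the terminal sac and alveolar libraries. Exons 21 to 23 stood at 0.002, 0.002 and 0.007 in the libraries that list it. The odds ratio was 3.16 (1.60 to 6.26) for alveolar against terminal sac, called with 23.3% of all circles. For alveolar against pseudoglandular it was 2.73 (1.19 to 6.26). Both count reads, and the alignment patterns of this circle numbered 5, 6 and 6 in these libraries. Exons 3 to 6 stood at 0.014, 0.014 and 0.010, with odds ratios of 0.979 and 0.741 (0.484 to 1.14) for its 2 steps. Exons 24 to 27 gave 0.980 between the terminal sac and canalicular libraries, where no collagen IV circle and 22.8% of all circles were called. The canalicular and pseudoglandular libraries share only the circle of exons 35 to 39, not called, beside 15.8% of all circles.

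The ends of the collagen IV circles were set beside those of other hosts. Placed on exons of a transcript were 25 of the 27. Both ends lay at exon boundaries in 10 of the 25 (40.0%), against 9985 of 11344 placed circles of all other hosts (88.0%) and 32 of 44 of other collagen genes (72.7%). A direct repeat of 6 or more bases was found in 10 of the 25 (40.0%), against 287 of 11344 (2.53%) and, in other collagens, 12 of 44 (27.3%). The median repeat was 5 bases in the collagen IV circles and 1 in the circles of all other hosts. These shares are descriptions: the circles of 1 gene share exons and ends, and collagen coding sequence is repetitive throughout.

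**Figure D4:**
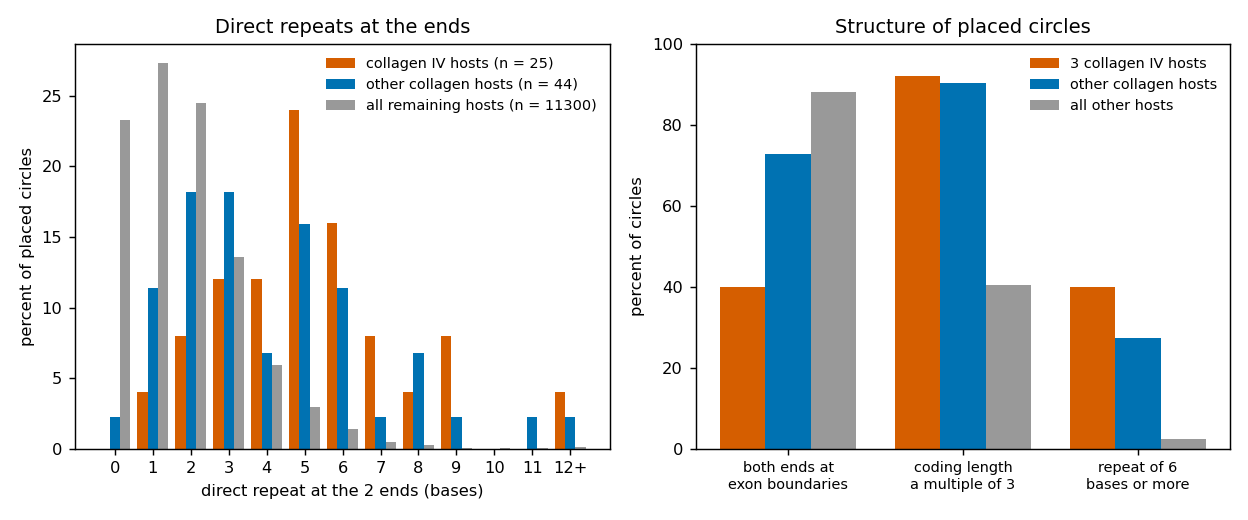
Left, percent of placed circles by length of the direct repeat at the ends, in bases, for 25 collagen IV circles, 44 circles of other collagen genes and 11300 of the remaining hosts; right, percent of circles with both ends at exon boundaries, with a coding length that is a multiple of 3, and with a repeat of 6 or more bases. Collagen IV circles stand at 40.0%, 92.0% and 40.0%, and all other hosts at 88.0%, 40.4% and 2.53%.

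Nearly all circles kept the reading frame. The coding length was a multiple of 3 bases in 23 of 25 collagen IV circles (92.0%), in 37 of 41 circles of other collagens (90.2%) and in 3590 of 8877 of all other hosts (40.4%). A multiple of 9 bases, the length of a Gly-X-Y triplet's codons, was found in 7 of 25 (28.0%), against 25 of 41 in other collagens (61.0%) and 13.6% of all other hosts. In 21 of the 25 circles both ends fell at a glycine codon GGN, which was cut after its leading base in 17 of them and left whole in 4. The 2 circles that did not keep the frame include the most read one of Col4a2, exons 34 to 45, with 1319 spliced bases.

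Of 12 5′ ends inside an exon, 10 follow the letters AG, which also stand before the 5′ end of an exon in the intron. Of 9 3′ ends inside an exon, 7 stand before GT, the letters that open an intron. The others carry AC and CT, the same letters read on the opposite strand. The filter behind the lists is not given and may itself require such letters. They therefore do not show that splicing took place inside these exons.

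Few distinct alignment patterns stood behind the reads of several collagen IV circles. Over the 18 library entries with 10 or more reads, the median was 6.67 reads per pattern, from 1.67 to 18.5, and 13 had 3 or more. Among the 2096 such entries of other hosts the median was 1.09, the 95th percentile was 2.0 and 48 (2.29%) had 3 or more. Exons 35 to 39 had 18.5, 15.3, 17.1 and 15.4 reads per pattern in order of stage. Reads per pattern were higher in entries of 200 or more reads generally: 20 such entries of other hosts had a median of 2.36, and 7 of them (35.0%) had 3 or more. Collagen IV entries of under 10 reads had a median of 1.0, from 0.5 to 2.5. Few patterns were not particular to collagen IV. Alveolar entries of other matrix hosts with 3 or more reads per pattern include Col5a1 (50 reads over 7 patterns), Col3a1 (38 over 7), Col1a2 (124 over 22) and Eln (1646 over 65). Other entries of such hosts did not share this, as a canalicular one of Col5a1 with 15 reads over 16 patterns. No value was taken for the other collagens as a group.

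The split of patterns by kind also differed between circles. For exons 35 to 39 the SM, MS and SMS patterns numbered 0, 14 and 1 in the pseudoglandular library, 4, 22 and 1 in the canalicular, 8, 20 and 6 in the terminal sac and 11, 30 and 6 in the alveolar. Exons 24 to 27 had 12, 0 and 4 in the canalicular and 12, 0 and 1 in the terminal sac library. Exons 23 to 28 had 0, 5 and 1 behind its 110 reads. Of the 18 entries, 8 (44.4%) lacked SM or MS patterns, against 39 of 2096 (1.86%) in other hosts.

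Exons 24 to 26 had 0, 8 and 1 in the canalicular, 4, 10 and 4 in the terminal sac and 3, 16 and 3 in the alveolar library. Exons 21 to 23 had 4, 1 and 0, then 0, 5 and 1, then 5, 1 and 0 in the libraries that list it. Exons 3 to 6 had 4, 1 and 3 in the canalicular, 4, 0 and 2 in the terminal sac and 2, 2 and 1 in the alveolar library. Exons 34 to 35 had 1, 5 and 0. The Col4a5 circles of exons 9 to 28 and 13 to 17 had 6, 1 and 1 and 4, 0 and 1, with 2.5 and 2.2 reads per pattern.

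**Figure D5:**
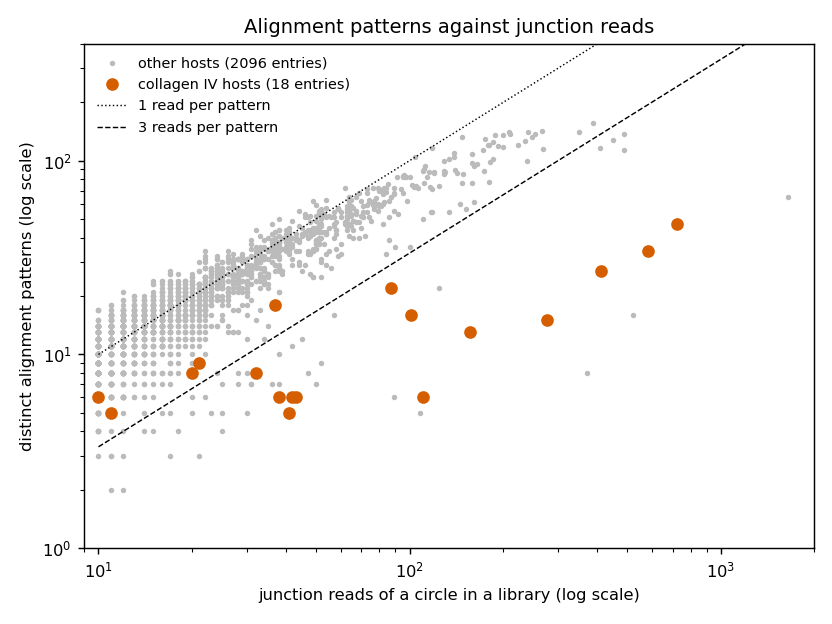
Distinct alignment patterns against junction reads, both on log scales, a point for each circle in each library with 10 or more reads; lines mark 1 and 3 reads per pattern. The 18 collagen IV entries run from 1.67 to 18.5 reads per pattern and most lie below the lower line, whereas the 2096 entries of other hosts have a median of 1.09.

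Of the 9 circles with 10 or more reads in a library, 6 had 3 or more reads per pattern over their libraries (66.7%) against 38 of 1029 in other hosts (3.69%), and 4 had a repeat of 6 or more bases (44.4%) against 30 (2.92%). Entries of other matrix hosts also had few patterns, as given above. How far patterns and repeats bear on the counts was not tested. Neither mark is carried by exons 24 to 26, with 2.96 reads per pattern and a repeat of 3 bases, or by the 2 Col4a5 circles. The limit of 3 reads per pattern was chosen after seeing the data.

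Other basement membrane genes gave far fewer circular reads than Col4a1. Of a list of 34, among them the laminins, nidogens, perlecan (Hspg2) and the other type IV chains, 24 were listed and 21 of those stayed under 10 reads in every library. The list held 0.216%, 0.131%, 0.205% and 0.533% of junction reads in order of stage. Of 3 list members tested between the canalicular and pseudoglandular libraries 1 was lower, beside 20.2% of all host sums called. Between the terminal sac and canalicular libraries 0 of 4 were called, beside 24.6%, and between the alveolar and terminal sac 2 of 4 were higher, beside 24.5%. Between the alveolar and pseudoglandular libraries 2 of 4 were higher and 1 lower, beside 29.4%. With 3 or 4 hosts tested, these counts cannot be set apart from the background. The median log2 ratios of the list were -0.55, 1.29, 1.21 and 0.69, against 0.02, 0.03, -0.23 and -0.12 over all hosts.

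Hmcn1, which encodes hemicentin 1, an extracellular matrix protein, had 4, 0, 2 and 75 reads, 17.2-fold (6.44 to 64.7) higher in the alveolar than in the pseudoglandular library. Its alveolar reads came mostly from circles of exons 79 to 80 (38 reads) and 27 to 38 (30 reads), with 3.8 and 3.75 reads per pattern, and the latter has a repeat of 10 bases. Frem1, a matrix protein of the epithelial basement membrane, had 11, 9, 9 and 34 reads, 4.82-fold (2.26 to 11.4) higher in the alveolar than in the terminal sac library. Lama2, the laminin alpha 2 chain, had 11, 2, 0 and 0 reads, 6.61-fold (1.44 to 61.4) lower in the canalicular than in the pseudoglandular library. Its alveolar call was lost under both other scalings. Of the other type IV chains, Col4a4 had 6 alveolar reads, Col4a6 had 2 reads in each of the pseudoglandular and canalicular libraries, and Col4a3 was not listed.

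Of a list of 24 genes for enzymes, chaperones, receptors and proteases of collagen, 9 were listed, none with 10 reads in a library and so none tested. The list held 0.0385%, 0.0320%, 0.0304% and 0.0212% of junction reads. It includes Col4a3bp, which despite its name encodes a lipid transfer protein.

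Markers of the cells that lung tissue holds were read through their own circles, since the files list circRNAs and not gene expression. Of 10 endothelial genes all 10 were listed, 5 of them under 10 reads everywhere, and their share was 0.0539%, 0.0961%, 0.266% and 0.536%. Pecam1 had 3, 19, 22 and 39 reads and Prex2 had 2, 5, 55 and 63, and these 2 genes gave most of the alveolar reads of the list. Flt1, with 4, 4, 2 and 2, and Emcn, with 0, 0, 4 and 2, were not highest in the alveolar library. The remaining endothelial genes had most reads there, at low counts. Of 8 genes of mesenchyme and pericytes 7 were listed, with shares of 0.824%, 0.782%, 0.893% and 2.95%. In that list Pde5a had 157, 211, 255 and 516 reads, Trpc6 had 18, 25, 49 and 108, Col1a2 had 17, 0, 0 and 171 and Col3a1 had 18, 3, 13 and 38. Col1a1, with 4, 3, 3 and 4 reads, Pdgfra, with 0, 2, 0 and 0, and Pdgfrb, with 0, 0, 3 and 0, had no more alveolar than pseudoglandular reads. Of the alveolar Col1a2 reads, 124 were of a circle with 22 alignment patterns. Of 4 hosts of that list tested in the first step 2 were lower and none higher, beside 20.2% of all host sums called. Of 4 tested in the last step all 4 were higher, beside 24.5%. Of 7 epithelial genes 4 were listed, with shares of 0%, 0.0609%, 1.23% and 2.62%. Sftpc, the surfactant protein C gene, had 0, 0, 376 and 521 reads, Sftpb had 0, 0, 0 and 108 and Lamp3 had 0, 6, 64 and 110. Esrp1, an epithelial splicing regulator, went the other way after the canalicular library, with 0, 13, 3 and 2 reads. The 521 alveolar reads of Sftpc lay over 16 alignment patterns and the 108 of Sftpb over 5. The alveolar share of the epithelial list thus rests mostly on reads with few patterns. Of 3 epithelial hosts tested in the middle step, 2 were higher and 1 lower in the terminal sac library, beside 24.6% of all host sums called. Epcam, Cdh1 and Nkx2-1 were not listed. A host that reached 10 reads only through the library where it is high enters with a difference already. These counts therefore support nothing about the marker lists.

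Of 3 mesothelial genes 1 was listed, Msln, with 2 reads, and of 5 erythroid genes 1, Slc4a1, with 2 reads. The 3 immune genes held 0.0154%, 0.0993%, 0.0802% and 0.0388%. The endothelial, mesenchymal and epithelial shares were, like that of Col4a1, highest in the alveolar library. Their part in the Col4a1 values was not tested.

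Over the 4 libraries, the circles of other hosts whose shares were most like those of Col4a1 exons 35 to 39, among 321 circles with 50 or more reads in all, were found by Pearson's r. These were Fbn1 exons 47 to 48 (r = 0.998, with 0, 8, 28 and 57 reads), Prkce exons 7 to 10 (0.995, with 7, 12, 25 and 48 reads), Maml3 exon 2 (0.991, with 7, 12, 15 and 19 reads), Pde5a exons 8 to 11 (0.991, with 12, 16, 30 and 51 reads) and Creb3l2 exons 3 to 8 (0.991, with 30, 37, 52 and 54 reads). With 4 points that share their libraries' depth, these values are a description only.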

How the data were processed

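The values are lists of circRNAs, 1 per library, deposited by the authors. The columns are those CIRI writes. Build mm10 and the tools BWA, HISAT2 2.0.5, HTSeq, StringTie and cutadapt stand in the submitters' processing notes, with no role given. Junction and non-junction reads are raw counts, per the file headers, and a blank was read as 0. The deposited junction ratio is a fraction and was recomputed without a mismatch. All listed reads name 1 flow-cell lane.

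Circles were identified by chromosome, start and end, matched to hosts by the deposited Ensembl identifiers, and placed on GENCODE M21 transcripts. For each pair of libraries, circles with 10 or more reads were compared by their share of all junction reads listed, as a ratio with a 95% interval from the exact conditional binomial. A circle was called at 2-fold or more with an interval excluding 1, and a circle not listed was set to 3 reads. Shares carry Clopper-Pearson intervals. Junction ratios were compared by odds ratios with Woolf's interval and 0.5 added. The code was tested on simulated data. Circles with 10 or more reads in a library were described singly, and the context lists by counts. Alternatives were other scalings, minimums, thresholds and subsets of circles. Members and lists were chosen with earlier results of these data known. Python 3.11.15, numpy 2.4.6, pandas 2.3.3, scipy 1.17.1 and matplotlib 3.10.9 were used.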

Additional observations from a re-analysis of the deposited data

How the results depend on the processing

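No paired analysis was possible because each stage has 1 library. With a minimum of 20 reads in the pair, circles called over the whole table numbered 100, 148, 149 and 159 in the 4 comparisons, against 183, 243, 241 and 276 with 10, and basement membrane hosts called between the canalicular and pseudoglandular libraries went from 1 to 0; fewer circles are tested there. Calls of collagen IV circles kept their number in each comparison under both scalings, the minimum of 20 reads and merging of ends within 5 bases (16 values). Without its circle with most reads, the Col4a1 sum was 7.77-fold in the first step and 0.608 (0.505 to 0.731) in the last, the opposite direction. Without repeat-end or few-pattern circles the last step was 2.94-fold (2.02 to 4.34), now called. That call rests on exons 24 to 26, with 87 and 37 of the 90 and 43 reads and 2.96 reads per pattern under a limit of 3. The Col4a5 sum of the terminal sac against the canalicular library was no longer called when scaled by non-junction reads (at least 3.57) or without repeat-end circles (at least 3.21). The cause was not tested beyond what these subsets leave out. Scaling by non-junction reads moved all log2 ratios by 0.18, -0.07, 0.06 and 0.17, and by the median of ratios by -0.01, 0.03, 0.18 and 0.20. With non-junction scaling the circles called in the first comparison went from 83 higher and 100 lower to 130 and 76. With the median of ratios those of the third went from 118 and 123 to 141 and 92, and those of the last from 114 and 162 to 147 and 128. Depth limits the lower circles: at 2 to 9 reads a circle can be absent from a list by counting error alone, which holds for the 18 circles under 10 reads in every library.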
